A study of Saccharomyces cerevisiae and Saccharomyces paradoxus and Saccharomyces cerevisiae x Saccharomyces paradoxus with 12 samples.

Results

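The parental and the allelic ratio of ribosome occupancy were compared, gene by gene, in the budding yeasts Saccharomyces cerevisiae and S. paradoxus and their F1 hybrid. Ribosome occupancy is the number of ribosome-protected mRNA fragments counted in a gene by ribosome profiling (Ribo-seq). The parental ratio is the occupancy in S. cerevisiae over that in S. paradoxus, and the allelic ratio is the occupancy of the S. cerevisiae allele over that of the S. paradoxus allele within the hybrid. The difference between the parental and the allelic ratio on the log2 scale is called the trans difference below. It is positive where S. cerevisiae exceeded S. paradoxus by more between the parents than between the alleles. All 5226 genes of the count table were members, and 5158 passed the filter on low counts and were tested. The ratios came from the 6 Ribo-seq libraries of the 12 libraries of the study. The main fit held all 12 libraries, so its p-values also depend on the spread of the RNA-seq libraries.

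The 3 strains were diploid S. cerevisiae GSY83, diploid S. paradoxus GSY82 and their diploid F1 hybrid GSY88, each with 2 Ribo-seq and 2 RNA-seq libraries. All grew in YEP+D, a rich medium with glucose, at 30 °C to an optical density (OD600) of 0.6 to 0.9 and received cycloheximide, which stalls elongating ribosomes, 5 min before extraction. Each hybrid library was counted once for each allele, so that the 6 Ribo-seq libraries gave 8 columns of counts. The labels do not say whether replicates came from separate cultures, and p-values therefore measure only the spread between these libraries.

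In an F1 hybrid both alleles of a gene share 1 nucleus and cytoplasm, and so the same transcription factors, signalling proteins and ribosomes. A difference between the species that acts through the gene's own sequence, in cis, is kept between the alleles, whereas one that acts through diffusible factors, in trans, is present between the parents and absent between the alleles. The trans difference is the usual measure of the second kind. It also takes up any response of the hybrid that affects its alleles unequally. Nutrient pathways of yeast such as those for phosphate, zinc, iron, sulfur and glucose are each governed by a few factors that act on many genes, so a single upstream difference can reach a whole set of targets.

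Depth was 6116133 to 8910405 counts per Ribo-seq column. No Ribo-seq column held a gene at 0 counts, so 1 was the lowest count there. Whether lower counts were removed or raised is not stated. Log2 values of replicate Ribo-seq columns correlated across genes by 0.989 to 0.992, against 0.95 and 0.951 for the RNA-seq columns of the hybrid alleles. The median gene stood at 59.4 to 61.4 CPM (counts scaled to library size) in the Ribo-seq columns. Paired S. cerevisiae and S. paradoxus columns differed in total by at most 0.18%, so a difference in total output between species or alleles cannot be seen. The parental columns carried the heading "Mix", and what it stands for is not stated in the labels.

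The trans difference passed an adjusted p of 0.05 in 360 of 5158 genes (6.98%), tested with edgeR (quasi-likelihood) and adjusted by the Benjamini-Hochberg method. It was above 0 in 237 genes (4.59%) and below 0 in 123 genes (2.38%). Among the 360 genes the median absolute trans difference was 1.65 on the log2 scale, against 0.37 over all genes tested, and 316 genes (6.13% of those tested) passed with a change of at least 2-fold. The smallest absolute trans difference that passed was 0.70 and the largest 7.15. In all 360 genes both per-replicate parental ratios lay on the same side of both allelic ratios, a separation that 66.7% of all tested genes also had. The parental ratio passed in 1702 genes (33.0%) and the allelic ratio in 451 (8.74%), of which 211 (4.09%) were above 0 and 240 (4.65%) below, and across the tested genes the 2 ratios correlated by 0.566 (Pearson) and 0.469 (Spearman).

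The number of genes that passed differed by several fold between fits. With a term for each hybrid library, which pairs the 2 alleles counted from the same library, 1170 genes passed, 630 above 0 and 540 below, and all 360 genes kept their call and direction. In a fit of the Ribo-seq columns alone 1232 genes passed, 582 above 0 and 650 below, and 357 of the 360 kept theirs. Positive differences were 65.8% of the calls in the main test and 47.2% in the Ribo-seq columns alone. Leaving out a single Ribo-seq library left 89 to 192 calls, with 93 and 89 calls without hybrid Ribo-seq replicate 1 and 2. Leaving out hybrid RNA-seq replicate 1 or 2 gave 1069 or 1048.

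Most of the 360 genes differed between the parents and not detectably between the alleles. They were selected on the difference of these ratios, and over all tested genes the parental ratio passed in 33.0% and the allelic one in 8.74%. The shares below are therefore descriptions only. The parental ratio alone passed in 273 (75.8%), 174 of them higher in S. cerevisiae and 99 lower. The allelic ratio alone passed in 34 (9.44%), both ratios in the same direction in 34 (30 with the larger ratio between the parents and 4 with the larger between the alleles), both in opposite directions in 14 (3.89%), and neither in 5. With a term for each hybrid library the shares were 68.8% for the parental ratio alone, 8.46% for the allelic ratio alone and 6.50% for opposite directions. Of the 1702 genes whose parental ratio passed, 317 had a trans difference of the same sign that passed, while the allelic ratio of 312 passed with the sign of the parental one.

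**Figure D1:**
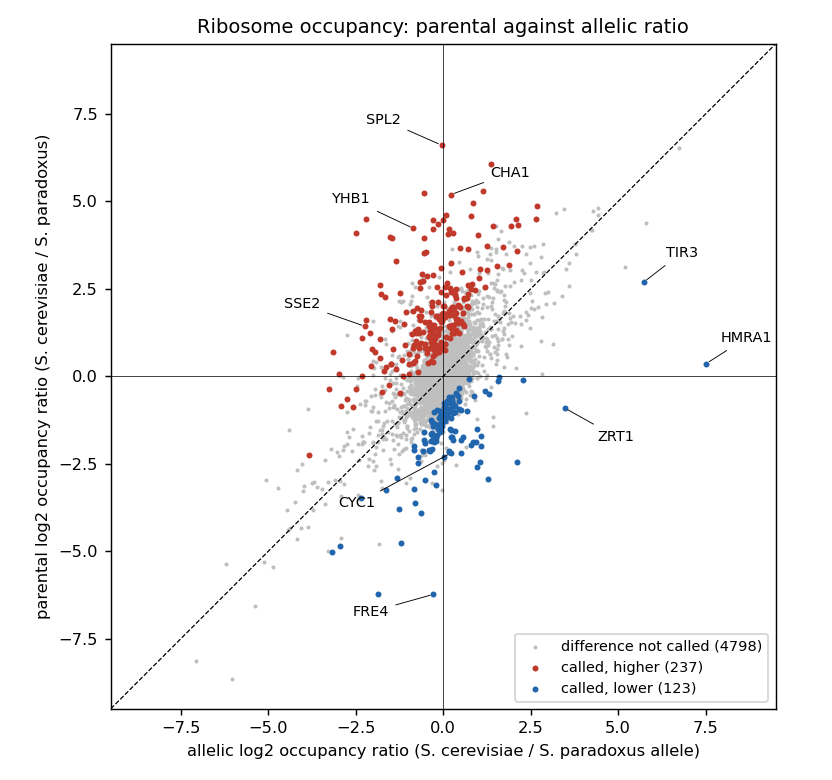
Parental log2 ratio of ribosome occupancy (vertical axis) against the allelic log2 ratio in the hybrid (horizontal axis) for the 5158 tested genes, with the 237 genes whose trans difference passed above 0 in red, the 123 below 0 in blue, and equality as the dashed line. SPL2, CHA1 and FRE4 lie near an allelic ratio of 0 with parental ratios of 6.61, 5.20 and -6.23, whereas YHB1, SSE2 and ZRT1 lie in the quadrants of opposite sign.

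Genes for phosphate uptake were among those with the largest trans differences. SPL2 encodes a regulator of low-affinity phosphate transport (YHR136C, chromosome VIII, 374654 to 375100, minus strand). SPL2 had 183 and 209 CPM in the S. cerevisiae parent and 1.95 and 2.03 CPM in the S. paradoxus parent, against 117 and 140.0 CPM for the S. cerevisiae allele and 112 and 153 CPM for the S. paradoxus allele. The S. paradoxus parent was low in both libraries while the 2 alleles overlapped each other near the level of the S. cerevisiae parent. SPL2's trans difference was 6.65 ± 0.44 (SE, adjusted p = 1.8e-06), with a parental log2 ratio of 6.61 and an allelic one of -0.04. PHO84 encodes the high-affinity phosphate transporter (YML123C, chromosome XIII, 24037 to 25800, minus strand). PHO84 had 3044 and 3227 CPM in the S. cerevisiae parent and 138 and 120.2 CPM in the S. paradoxus parent, against 1709 and 1404 CPM for the S. cerevisiae allele and 1639 and 1311 CPM for the S. paradoxus allele. Its alleles again overlapped, and both lay below the S. cerevisiae parent and above the S. paradoxus parent. PHO84's trans difference was 4.52 ± 0.44 (SE, adjusted p = 6.99e-05). PHM6, a gene of the phosphate response whose product has no known function (YDR281C, chromosome IV, 1022007 to 1022321, minus strand), differed by 4.15 ± 0.66 (SE, adjusted p = 0.00228). PHM6 had 30.4 and 26.1 CPM in the S. cerevisiae parent and 1.12 and 0.185 CPM in the S. paradoxus parent, against 12.1 and 20.7 CPM for the S. cerevisiae allele and 7.99 and 6.94 CPM for the S. paradoxus allele. The S. paradoxus parent held only 8 and 1 counts in its 2 libraries, so the size of this difference is poorly bounded. A count of 1 was the lowest in any Ribo-seq column. The coding length of the orthologs differs for SPL2 (447 bases in S. cerevisiae, 399 in S. paradoxus) and PHM6 (315 and 276), which enters the parental and the allelic ratio alike.

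Of 31 tested genes for phosphate and zinc uptake, 11 had a trans difference that passed above 0 and 3 below, with a median of 0.67 against 0.03 over all genes. With a term for each hybrid library these counts were 16 and 5, in a fit where 1170 of all 5158 genes passed. In the main test 45.2% of the list passed in either direction, against 6.98% of all genes. None of those above 0 was a zinc transporter. The phosphatase genes PHO5 (2.61), PHO8 (2.56) and PHM8 (4.04) and the polyphosphate polymerase subunits VTC1 (2.31), VTC2 (1.54) and VTC4 (1.98) were among them. PHM8 encodes a phosphatase that acts on lysophosphatidic acid and nucleotides. PHM8 had 59.9 and 59.6 CPM in the S. cerevisiae parent and 5.86 and 4.25 CPM in the S. paradoxus parent, against 5.36 and 12.7 CPM for the S. cerevisiae allele and 9.37 and 16.3 CPM for the S. paradoxus allele. The high group was the S. cerevisiae parent, and the other libraries lay between 4.25 and 16.3 CPM. PHM8's trans difference was 4.04 ± 0.49 (SE, adjusted p = 0.000364). PHO3, the thiamine-repressible acid phosphatase next to PHO5 (YBR092C, chromosome II, 427698 to 429101, minus strand), differed by 2.34 ± 0.51 (SE, adjusted p = 0.015), with adjusted p from 4.56e-06 to 0.158 over the alternatives. It lost its call when S. cerevisiae Ribo-seq replicate 2, or either replicate of S. paradoxus or of the hybrid, was left out. PHO3 and PHO5 are near-identical neighbours whose reads the counting could have split, and PHO3's orthologs have coding lengths of 1404 and 960 bases. PHO87, a low-affinity phosphate transporter, was the phosphate gene below 0 (-1.28).

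**Figure D2:**
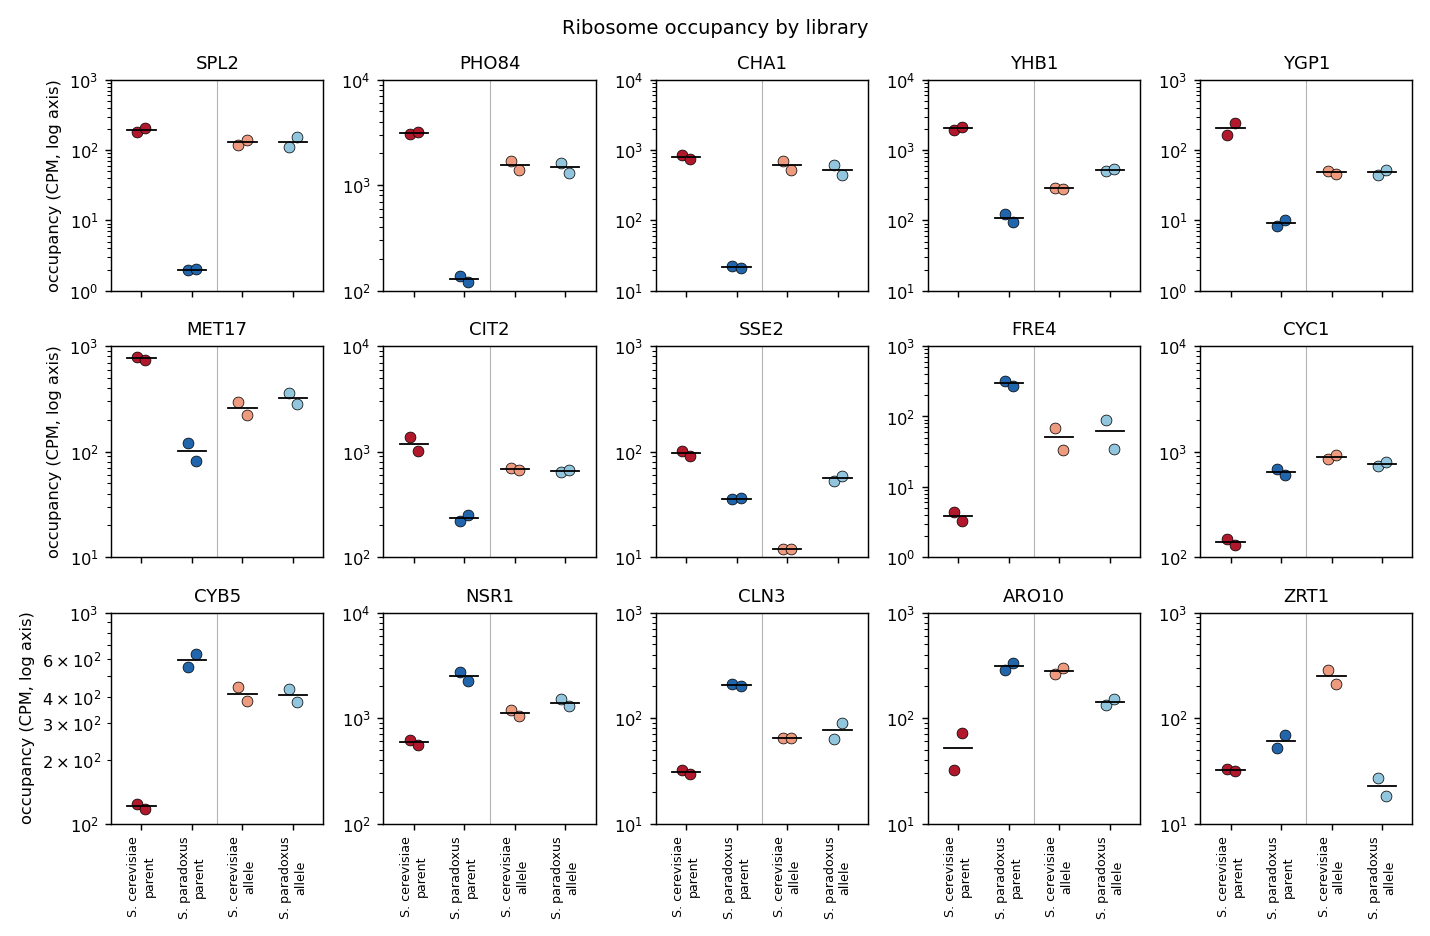
Ribosome occupancy of 15 genes in every Ribo-seq library, in CPM on a log axis, with 2 points per group and the mean as a line, for the parents (left of the grey line) and the hybrid alleles (right). The alleles of SPL2, PHO84, CHA1, YGP1, CIT2 and CYB5 overlap while the parents stand apart, and those of SSE2 and ZRT1 differ in the direction opposite to the parents.

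Among 33 tested genes of stationary phase and glucose repression, which cover reserve carbohydrates and general stress proteins, 14 passed above 0 and none below, with a median of 2.41. The count was 29 with a term for each hybrid library, and the median stayed between 2.15 and 2.72 over all alternatives. In these genes the median log2 change was 1.42 for the S. cerevisiae parent minus its allele and -1.13 for the S. paradoxus parent minus its allele. In bulk cultures, more cells in such a state and more ribosomes on these mRNAs in each cell cannot be told apart. YGP1 encodes a secreted glycoprotein made as nutrients run out (YNL160W, chromosome XIV, 336545 to 337609, plus strand). YGP1 had 165 and 243 CPM in the S. cerevisiae parent and 8.38 and 10.2 CPM in the S. paradoxus parent, against 51.1 and 45.1 CPM for the S. cerevisiae allele and 43.6 and 52.7 CPM for the S. paradoxus allele. The alleles overlapped, midway between the parents on the log scale. YGP1's trans difference was 4.47 ± 0.50 (SE, adjusted p = 0.000183).

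HSP12, a small stress protein of the membrane (YFL014W, chromosome VI, 107256 to 107585, plus strand), had the highest trans difference, 6.71 ± 1.12 (SE, adjusted p = 0.00304). HSP12 had 59.1 and 42.4 CPM in the S. cerevisiae parent and 2.37 and 2.03 CPM in the S. paradoxus parent, against 1.25 and 3.69 CPM for the S. cerevisiae allele and 3.65 and 19.4 CPM for the S. paradoxus allele. Both alleles lay below the S. cerevisiae parent, and both were higher in hybrid replicate 2 than in replicate 1. HSP12's parental log2 ratio was 4.51 and its allelic one -2.20, of opposite sign. The allelic ratio did not pass in the main test (adjusted p = 0.112 by edgeR). It did with a term for each hybrid library (0.00454) and in the Ribo-seq columns alone (0.0431). GSY2, the main glycogen synthase, differed by 4.74 ± 0.88 (SE, adjusted p = 0.00605). GSY2 had 168 and 179.7 CPM in the S. cerevisiae parent and 6.84 and 9.06 CPM in the S. paradoxus parent, against 21.2 and 37.3 CPM for the S. cerevisiae allele and 24.3 and 47.03 CPM for the S. paradoxus allele. The alleles overlapped between the parents. Its call was lost without hybrid Ribo-seq replicate 2, with adjusted p from 5.88e-10 to 0.063 over the alternatives. The trehalose synthase subunit TSL1 (3.80), the trehalases NTH1 (2.41) and NTH2 (1.17), the glycogen branching enzyme GLC3 (3.15) and the debranching enzyme GDB1 (2.48) also passed above 0. YRO2, a membrane protein related to HSP30, differed by 4.64 ± 0.58 (SE, adjusted p = 0.000426). YRO2 had 110.0 and 151 CPM in the S. cerevisiae parent and 8.38 and 18.5 CPM in the S. paradoxus parent, against 3.93 and 7.39 CPM for the S. cerevisiae allele and 9.90 and 18.9 CPM for the S. paradoxus allele. Here the S. cerevisiae parent was high and the other libraries lay between 3.93 and 18.9 CPM. RGI1, a gene induced in respiratory growth, differed by 4.71 ± 1.12 (SE, adjusted p = 0.0223), and BDH2, a putative alcohol dehydrogenase next to the butanediol dehydrogenase BDH1, by 5.81 ± 1.49 (SE, adjusted p = 0.0337). RGI1 lost its call without S. cerevisiae replicate 2 or either S. paradoxus Ribo-seq library (adjusted p from 1.22e-05 to 0.127 over the alternatives), and BDH2 without any 1 Ribo-seq library or either S. paradoxus RNA-seq library (from 2.52e-07 to 0.264).

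Of 27 tested oxidative stress genes 10 passed above 0 and none below (13 and none with a term for each hybrid library), with a median of 0.83. YHB1, the flavohemoglobin that detoxifies nitric oxide (YGR234W, chromosome VII, 959904 to 961103, plus strand), had the smallest adjusted p of the comparison together with CHA1. YHB1 had 1934 and 2135 CPM in the S. cerevisiae parent and 122 and 95.1 CPM in the S. paradoxus parent, against 289 and 282 CPM for the S. cerevisiae allele and 496 and 532 CPM for the S. paradoxus allele. The parents differed with S. cerevisiae high, whereas the alleles differed in the other direction, and none of the 4 groups overlapped. YHB1's parental log2 ratio was 4.23, its allelic one -0.85 and its trans difference 5.08 ± 0.27 (SE, adjusted p = 3.02e-07). The glutathione transferases GTT1 (2.08 ± 0.30 (SE, adjusted p = 0.0011)) and GTT2 (2.75), the thioredoxin reductase TRR1 (0.87) and the glutathione reductase GLR1 (1.16) passed above 0 too. GTT1 was lower in S. cerevisiae than in S. paradoxus by a log2 ratio of -0.86, and lower still between the alleles, -2.93. GPX1, a peroxidase, differed by 3.81 ± 0.60 (SE, adjusted p = 0.00211) but held 3 to 15 counts per library. Among 31 chaperone and heat shock genes 4 passed above 0 and 1 below (5 and 4 with a term for each hybrid library), and the median of -0.04 changed sign over the alternatives. HSP30, a membrane protein of the stress response, had 3.93 ± 0.47 (SE, adjusted p = 0.000261) and HSP26, a small heat shock protein, 4.07, whereas BTN2, which sorts misfolded proteins into deposits, was below 0 at -2.32 ± 0.33 (SE, adjusted p = 0.0011).

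CHA1, the serine and threonine deaminase (YCL064C, chromosome III, 15798 to 16880, minus strand), had the same pattern as SPL2. CHA1 had 855 and 736 CPM in the S. cerevisiae parent and 22.6 and 20.7 CPM in the S. paradoxus parent, against 699.9 and 528 CPM for the S. cerevisiae allele and 607 and 444 CPM for the S. paradoxus allele. The S. paradoxus parent was low, and the alleles overlapped each other just below the S. cerevisiae parent. CHA1's trans difference was 4.97 ± 0.28 (SE, adjusted p = 3.02e-07). PRY1, a secreted sterol-binding protein, differed by 4.12 ± 0.73 (SE, adjusted p = 0.00465). PRY1 had 133 and 242 CPM in the S. cerevisiae parent and 5.72 and 6.29 CPM in the S. paradoxus parent, against 29.3 and 48.8 CPM for the S. cerevisiae allele and 17.9 and 25.6 CPM for the S. paradoxus allele. Its alleles did not overlap in these libraries, and the parental ratio of 4.96 passed. The allelic ratio of 0.85 did not pass (adjusted p = 0.359 by edgeR), but did with a term for each hybrid library (0.0442).

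Sulfur and methionine genes passed above 0 in 7 of 32 cases and below 0 in 1, with a median of 0.81, and in 16 and 4 cases with a term for each hybrid library. MET17 encodes the sulfhydrylase that makes homocysteine (YLR303W, chromosome XII, 732542 to 733876, plus strand). MET17 had 783 and 745 CPM in the S. cerevisiae parent and 122 and 81.2 CPM in the S. paradoxus parent, against 296 and 224 CPM for the S. cerevisiae allele and 358 and 281 CPM for the S. paradoxus allele. The alleles overlapped between the parents, which lay well apart. MET17's trans difference was 3.21 ± 0.32 (SE, adjusted p = 7.02e-05). The sulfate assimilation enzymes MET3 (1.83) and MET16 (1.65), the reductase MET13 (2.88) and the regulators CBF1 (1.26 ± 0.23 (SE, adjusted p = 0.00517)) and MET28 (2.91 ± 0.55 (SE, adjusted p = 0.00655)) passed as well. CBF1 lost its call without either hybrid Ribo-seq library (adjusted p from 8.32e-06 to 0.0857 over the alternatives) and MET28 without replicate 2 of the hybrid (from 0.000498 to 0.123). MHT1, a homocysteine methyltransferase, was below 0 (-1.45).

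All 18 tested genes of the citric acid and glyoxylate cycles lay above 0, with a median of 0.72, and 3 passed, or 7 with a term for each hybrid library. CIT2, the peroxisomal citrate synthase (YCR005C, chromosome III, 120946 to 122328, minus strand), responds to loss of mitochondrial function through the retrograde pathway. CIT2 had 1374 and 1014 CPM in the S. cerevisiae parent and 222 and 254 CPM in the S. paradoxus parent, against 703 and 672 CPM for the S. cerevisiae allele and 636 and 672 CPM for the S. paradoxus allele. Its alleles overlapped and lay between the parents. CIT2's trans difference was 2.26 ± 0.25 (SE, adjusted p = 0.000183). LSC2, a subunit of succinyl-CoA ligase, differed by 1.32 ± 0.24 (SE, adjusted p = 0.00594) but not without either hybrid Ribo-seq library (adjusted p from 3.12e-05 to 0.106 over the alternatives). ICL1, the isocitrate lyase, had 2 to 31 counts per library and 3.31 ± 0.89 (SE, adjusted p = 0.0416), and lost its call in 10 alternatives that each left out a library. In glycolysis and fermentation 3 of 27 genes passed above 0 and none below, a share of 11.1% against 6.98% of all genes. The median was 0.34. With a term for each hybrid library 8 passed above 0 and 1 below, in a fit that called 1170 of all 5158 genes. The 3 in the main test were the glucokinase GLK1 (2.73), the alcohol dehydrogenase ADH5 (1.30) and the enolase ENO1 (1.32). Each lost its call in at least 5 alternatives that left out a library, and ENO1 shares nearly all its sequence with ENO2. For ADH5 the allelic ratio (-1.75) passed in the main test and the parental one (-0.45) did not. HXT2, a hexose transporter induced at low glucose, was the member of 11 transporter and sensor genes that passed, below 0. That share of 9.09% is near the 6.98% of all genes. HXT2 had 574 and 321 CPM in the S. cerevisiae parent and 1368 and 1181 CPM in the S. paradoxus parent, against 2432 and 2058 CPM for the S. cerevisiae allele and 1312 and 983 CPM for the S. paradoxus allele. The S. cerevisiae parent was the lowest group and the S. cerevisiae allele the highest. HXT2's trans difference was -2.48 ± 0.41 (SE, adjusted p = 0.00304), and its call was lost without hybrid Ribo-seq replicate 2 (adjusted p from 3.29e-07 to 0.0508 over the alternatives).

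Oxidative phosphorylation genes lay below 0 in 30 of 35 cases, with a median of -0.69, and 8 passed below 0 and none above (19 and 2 with a term for each hybrid library). The S. cerevisiae parent lay below its allele by a median of -0.74, whereas the S. paradoxus parent and its allele differed by a median of 0.04. CYC1, the main form of cytochrome c (YJR048W, chromosome X, 526335 to 526664, plus strand), had this pattern. CYC1 had 150.2 and 131 CPM in the S. cerevisiae parent and 679.8 and 607 CPM in the S. paradoxus parent, against 852 and 925 CPM for the S. cerevisiae allele and 728 and 803 CPM for the S. paradoxus allele. At the bottom stood the S. cerevisiae parent, and both alleles lay above the S. paradoxus parent. CYC1's trans difference was -2.41 ± 0.27 (SE, adjusted p = 0.000212). The other members that passed belong to the chain that passes electrons to cytochrome c and oxygen. They were the external NADH dehydrogenase NDE1 (-1.30 ± 0.22 (SE, adjusted p = 0.00317)), the bc1 complex subunits CYT1 (-1.63), RIP1 (-1.51 ± 0.28 (SE, adjusted p = 0.00605)) and QCR9 (-1.31), and the oxidase subunits COX5A (-1.49), COX4 (-1.21) and COX8 (-0.98). NDE1 and RIP1 lost their calls without either hybrid Ribo-seq library, with adjusted p up to 0.068 and 0.0855. SUE1, needed to degrade unstable cytochrome c, differed by -3.26 ± 0.61 (SE, adjusted p = 0.00634). SUE1 had 1.53 and 0.575 CPM in the S. cerevisiae parent and 15.6 and 18.5 CPM in the S. paradoxus parent, against 11.1 and 18.5 CPM for the S. cerevisiae allele and 15.1 and 31.1 CPM for the S. paradoxus allele. Its level was low in the S. cerevisiae parent, with 12 and 3 counts, and the other groups overlapped.

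Genes that make ribosomes lay below 0 together, by small amounts. In all 62 tested ribosome biogenesis genes the trans difference was negative, with a median of -0.90 and a range of medians from -1.05 to -0.76 over the alternatives. In all 62 the replicate ratios did not overlap, which also held for 66.7% of all tested genes. In the edgeR test 5 passed below 0 and none above, a share of 8.06% near that of all genes (6.98%), and 46 and none with a term for each hybrid library. The S. cerevisiae parent lay below its allele by a median of -0.44 and the S. paradoxus parent above its allele by 0.43. NSR1, the yeast nucleolin (YGR159C, chromosome VII, 806412 to 807656, minus strand), passed with the smallest adjusted p. NSR1 had 616 and 559.5 CPM in the S. cerevisiae parent and 2719 and 2251 CPM in the S. paradoxus parent, against 1192 and 1039.9 CPM for the S. cerevisiae allele and 1505 and 1294 CPM for the S. paradoxus allele. The 4 groups did not overlap, with the parents outermost. NSR1's trans difference was -1.75 ± 0.27 (SE, adjusted p = 0.00207). The helicase DHR2 (-1.50 ± 0.33 (SE, adjusted p = 0.0156)) and the processome subunit UTP5 (-1.04 ± 0.25 (SE, adjusted p = 0.0246)) lost their calls without either hybrid Ribo-seq library, without S. cerevisiae replicate 2 and without S. paradoxus replicate 1, and UTP5 also without S. cerevisiae replicate 1. Adjusted p ran from 5.24e-05 to 0.0792 for DHR2 and from 0.000352 to 0.208 for UTP5.

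RNA polymerases I and III, which make the ribosomal RNA and tRNA, had negative differences in 19 of 19 listed genes, which include the polymerase I initiation factor RRN3 beside the subunits, with a median of -0.72, and 3 passed (13 with a term for each hybrid library). RPC19, a subunit that both enzymes share, had -1.29 ± 0.26 (SE, adjusted p = 0.00828), and the polymerase I subunits RPA49 and RPA14 had -1.16 ± 0.23 (SE, adjusted p = 0.00906) and -1.07 ± 0.22 (SE, adjusted p = 0.0125). These 3 calls were lost without either hybrid Ribo-seq library, RPA49's also without S. cerevisiae replicate 2 and RPA14's without S. cerevisiae replicate 1 or S. paradoxus replicate 2 (adjusted p up to 0.0872, 0.123 and 0.107). Cytosolic ribosomal protein genes were below 0 in 114 of 116 cases with a median of -0.41, but 1 passed, RPS14B (-0.99 ± 0.25 (SE, adjusted p = 0.0302)), against 12 below and 1 above with a term for each hybrid library. RPS14B's call was lost without replicate 1 of any strain or hybrid Ribo-seq replicate 2 (adjusted p from 0.00162 to 0.234 over the alternatives). Many ribosomal protein genes are near-identical pairs whose reads the counting could have split. Of 68 mitochondrial ribosomal protein genes 1 passed, MRPS35 (-0.79 ± 0.19 (SE, adjusted p = 0.0251)), with a median of -0.31 (9 with a term for each hybrid library), and it lost its call without any 1 Ribo-seq library (from 0.0004 to 0.234). Translation factors were below 0 in 41 of 42 cases with a median of -0.33. The share that passed was 4.76%, below the 6.98% of all genes. With a term for each hybrid library 1170 of 5158 genes passed, a larger share than in the ribosomal protein and translation factor lists. HYP2, which encodes the elongation factor eIF5A (-1.27 ± 0.23 (SE, adjusted p = 0.00517)), and the eIF3 subunit PRT1 (-0.84 ± 0.22 (SE, adjusted p = 0.0376)) passed (8 with a term for each hybrid library), and HYP2's call was lost without either hybrid Ribo-seq library (adjusted p up to 0.0834) and PRT1's in 9 alternatives (up to 0.263).

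**Figure D3:**
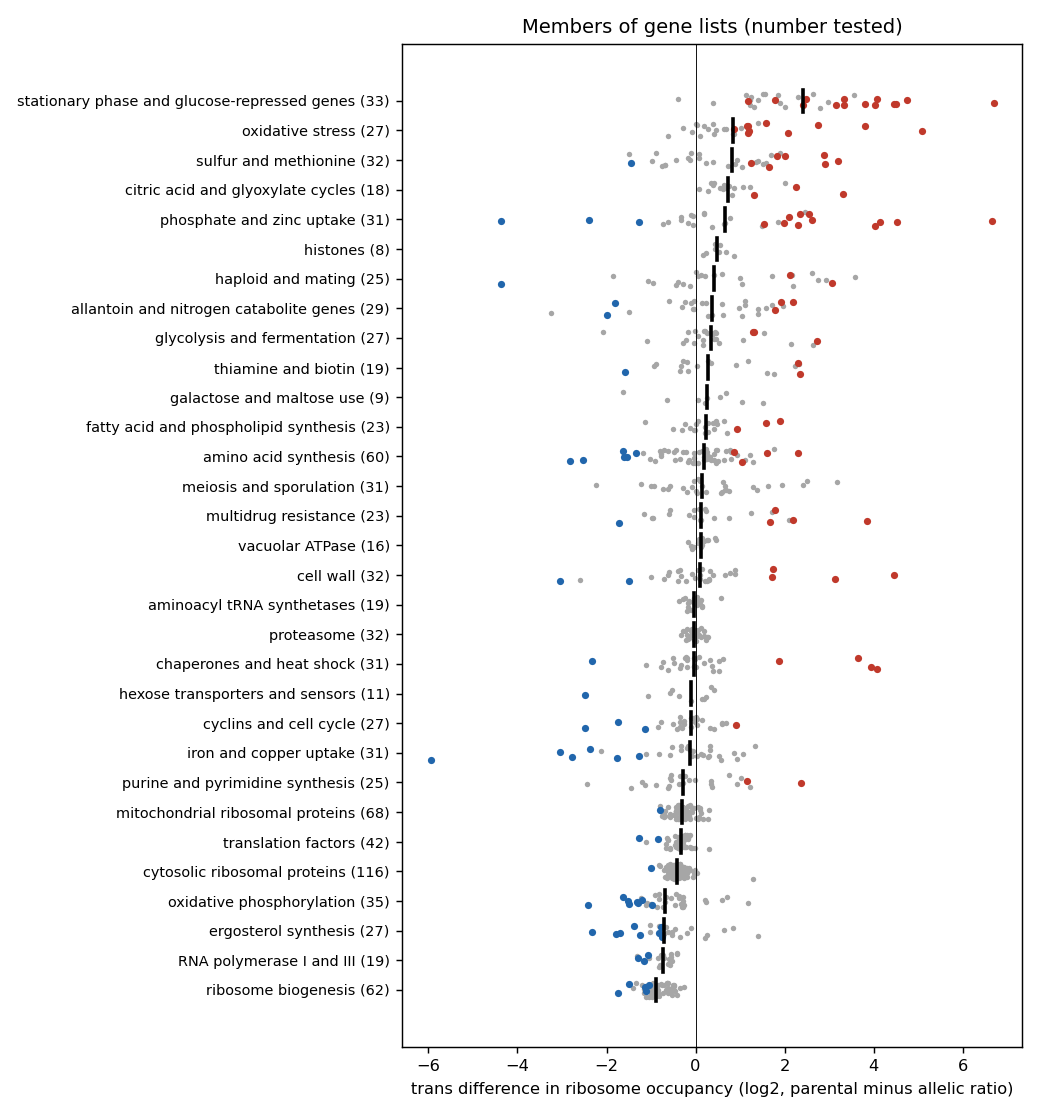
Trans difference in ribosome occupancy (log2, horizontal axis) of every tested member of the 31 gene lists, with 1 row per list with the number tested, as points that are red where the difference passed above 0, blue where it passed below 0 and grey otherwise, with the list median as a black bar. Stationary phase genes lie furthest to the right, with a median of 2.41, and ribosome biogenesis genes furthest to the left, with a median of -0.90, in a narrow band.

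Ergosterol synthesis genes passed below 0 in 8 of 27 cases and in none above (17 and 2 with a term for each hybrid library), with a median of -0.71. CYB5, the cytochrome b5 that passes electrons to sterol and lipid enzymes (YNL111C, chromosome XIV, 416940 to 417302, minus strand), was the best resolved. CYB5 had 124 and 117 CPM in the S. cerevisiae parent and 552 and 634 CPM in the S. paradoxus parent, against 443 and 379.5 CPM for the S. cerevisiae allele and 434 and 377 CPM for the S. paradoxus allele. The alleles overlapped, nearer to the S. paradoxus parent. CYB5's trans difference was -2.32 ± 0.23 (SE, adjusted p = 6.99e-05). HMG1 (-1.78), a form of HMG-CoA reductase, and ERG13 (-1.39 ± 0.27 (SE, adjusted p = 0.00691)), HMG-CoA synthase, act early in the pathway. The scaffold ERG28 (-1.71 ± 0.30 (SE, adjusted p = 0.00393)), lanosterol synthase ERG7 (-1.25) and the sterol oxidases ERG25 (-0.79) and ERG3 (-0.76) act later. ERG13 and ERG28 lost their calls without either hybrid Ribo-seq library (adjusted p up to 0.103 and 0.0729). Among 23 genes of fatty acid and phospholipid synthesis 3 passed above 0 and none below (5 and 1 with a term for each hybrid library). They were FAA1 (1.89), which activates fatty acids, and CHO1 (0.93) and OPI3 (1.59) of phospholipid synthesis. FAA1 lost its call in 10 alternatives and CHO1 in 8, each leaving out a library, and OPI3 without either hybrid Ribo-seq library.

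Iron and copper uptake genes passed below 0 in 6 of 31 cases and in none above (9 and 3 with a term for each hybrid library), while their median of -0.12 changed sign over the alternatives. FRE4, a metal reductase of the cell surface (YNR060W, chromosome XIV, 739951 to 742110, plus strand), had the largest negative difference among them. FRE4 had 4.46 and 3.26 CPM in the S. cerevisiae parent and 324 and 268 CPM in the S. paradoxus parent, against 67.7 and 33.4 CPM for the S. cerevisiae allele and 88.4 and 34.2 CPM for the S. paradoxus allele. The alleles overlapped each other between the parents, and both alleles were higher in hybrid replicate 1. FRE4's trans difference was -5.95 ± 0.59 (SE, adjusted p = 7.02e-05). The siderophore transporters ARN1 (-3.06 ± 0.71 (SE, adjusted p = 0.0199)) and ENB1 (-2.77), the heme oxygenase HMX1 (-2.38 ± 0.45 (SE, adjusted p = 0.00613)) and the cell wall mannoproteins FIT2 (-1.26) and FIT3 (-1.76 ± 0.32 (SE, adjusted p = 0.00547)), which retain siderophores, also passed. HMX1 and FIT3 lost their calls without either hybrid Ribo-seq library (adjusted p up to 0.068 and 0.0892), and ARN1 also without S. cerevisiae replicate 2 or either S. paradoxus library (up to 0.111).

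ZRT1 and ZPS1 were the zinc genes of the phosphate and zinc list that passed, both below 0, while the list's transporters ZRT2 and ZRT3 had -0.32 and 0.37 and did not pass. COT1, a vacuolar transporter of zinc and cobalt outside the list, passed above 0 (1.93) and was chosen after its value was seen. ZRT1, the high-affinity zinc transporter (YGL255W, chromosome VII, 20978 to 22108, plus strand), had parental and allelic ratios of opposite sign. ZRT1 had 33.1 and 31.6 CPM in the S. cerevisiae parent and 52.5 and 68.99 CPM in the S. paradoxus parent, against 287 and 212 CPM for the S. cerevisiae allele and 26.9 and 18.1 CPM for the S. paradoxus allele. The S. cerevisiae allele was the highest group and the S. paradoxus allele the lowest, with both parents between them. ZRT1's parental log2 ratio was -0.90, its allelic one 3.47 and its trans difference -4.38 ± 0.37 (SE, adjusted p = 1.79e-05). ZPS1, another zinc-regulated gene, differed by -2.39 ± 0.52 (SE, adjusted p = 0.0148). ZPS1 had 2.67 and 3.07 CPM in the S. cerevisiae parent and 2.79 and 3.33 CPM in the S. paradoxus parent, against 9.64 and 5.94 CPM for the S. cerevisiae allele and 1.39 and 1.74 CPM for the S. paradoxus allele. The parents overlapped and the alleles did not. Its call was lost without hybrid Ribo-seq replicate 1, S. cerevisiae replicate 1 or S. paradoxus replicate 2 (adjusted p from 0.00286 to 0.169 over the alternatives).

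Amino acid genes split, with 4 of 60 above 0 and 6 below (14 and 14 with a term for each hybrid library). ARO9, an aromatic aminotransferase, was among those below 0. ARO10, a phenylpyruvate decarboxylase that is outside the list and acts after ARO9 in aromatic amino acid breakdown, also passed below 0. ARO10 had 32.1 and 71.9 CPM in the S. cerevisiae parent and 287 and 334 CPM in the S. paradoxus parent, against 262 and 300.5 CPM for the S. cerevisiae allele and 134 and 153 CPM for the S. paradoxus allele. The S. cerevisiae allele overlapped the S. paradoxus parent, and the S. cerevisiae parent was the lowest group. ARO10's trans difference was -3.56 ± 0.57 (SE, adjusted p = 0.00229) and ARO9's was -2.82 ± 0.59 (SE, adjusted p = 0.012). ARO9's call was lost without either hybrid Ribo-seq library (adjusted p from 1.4e-05 to 0.126 over the alternatives). ARG8 and ARG3 of arginine synthesis lay below 0 (-1.55 ± 0.22 (SE, adjusted p = 0.00106) and -1.63), whereas the homocitrate synthase LYS21 (1.62 ± 0.24 (SE, adjusted p = 0.00139)) and LYS9 (1.05) of lysine synthesis lay above. LYS21 had 311 and 288 CPM in the S. cerevisiae parent and 75.8 and 70.3 CPM in the S. paradoxus parent, against 465 and 447 CPM for the S. cerevisiae allele and 356 and 326 CPM for the S. paradoxus allele. Both alleles of LYS21 were above both parents. Arginase CAR1 (-1.98 ± 0.38 (SE, adjusted p = 0.00691)) and the transaminase CAR2 (-1.81 ± 0.47 (SE, adjusted p = 0.035)), which break arginine down, passed below 0 in the list of 29 nitrogen catabolite genes. PUT1 (1.92 ± 0.43 (SE, adjusted p = 0.017)) of proline breakdown, UGA1 (1.78) of GABA breakdown and the permease GAP1 (2.18) passed above 0. With a term for each hybrid library 7 genes of the list passed above 0 and 5 below. CAR1 lost its call without either hybrid Ribo-seq library, PUT1 in 5 alternatives and CAR2 in 7 (adjusted p up to 0.0977, 0.199 and 0.237).

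In the cell cycle list 3 of 27 genes passed below 0 and 1 above (5 and 3 with a term for each hybrid library). CLN3, the G1 cyclin whose dose sets the size at which cells enter the cycle (YAL040C, chromosome I, 65778 to 67520, minus strand), was the best resolved. CLN3 had 32.4 and 29.7 CPM in the S. cerevisiae parent and 209.8 and 204 CPM in the S. paradoxus parent, against 64.3 and 65.05 CPM for the S. cerevisiae allele and 63.2 and 90.6 CPM for the S. paradoxus allele. The S. paradoxus parent was high, the S. cerevisiae parent low, and the alleles lay between them close together. CLN3's trans difference was -2.48 ± 0.33 (SE, adjusted p = 0.000692). The S-phase cyclin CLB6 (-1.75 ± 0.35 (SE, adjusted p = 0.00917)) and the replication licensing factor CDC6 (-1.14 ± 0.25 (SE, adjusted p = 0.0148)) were lower too, and CLB1, a mitotic cyclin, was higher (0.91). CLB6 lost its call without either hybrid Ribo-seq library or S. cerevisiae replicate 2 (adjusted p up to 0.107) and CDC6 in 5 alternatives (up to 0.171). Among 32 cell wall genes 4 passed above 0 and 2 below (7 and 5 with a term for each hybrid library). The daughter-specific genes DSE1 (1.71 ± 0.24 (SE, adjusted p = 0.00085)), DSE2 (1.74) and the chitinase CTS1 (3.14), which separate daughter from mother, passed above 0. TEC1, a transcription factor of filamentous growth, passed below 0 (-2.88 ± 0.53 (SE, adjusted p = 0.00582)), though not without hybrid Ribo-seq replicate 1 (up to 0.068), as did the putative zinc finger protein CMR3 (-2.81 ± 0.35 (SE, adjusted p = 0.000443)). CMR3 had 8.66 and 11.3 CPM in the S. cerevisiae parent and 103 and 139.8 CPM in the S. paradoxus parent, against 37.1 and 46.4 CPM for the S. cerevisiae allele and 60.4 and 85.5 CPM for the S. paradoxus allele. The parents were outermost and the alleles lay between them without overlap.

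Of 23 multidrug resistance genes 4 passed above 0 and 1 below (8 and 3 with a term for each hybrid library). PDR5, the main drug efflux pump, differed by 1.67 ± 0.38 (SE, adjusted p = 0.0185) but lost its call without any 1 Ribo-seq library (adjusted p up to 0.13). The reductase GRE2 had 1.79 ± 0.28 (SE, adjusted p = 0.00207), while the transporter AQR1 lay below 0 (-1.71). In biotin synthesis BIO2 had 2.30 ± 0.35 (SE, adjusted p = 0.00174), and 2 of 19 thiamine and biotin genes passed above 0 and 1 below (3 and 2 with a term for each hybrid library). PET18, the member below 0, had -1.60 ± 0.39 (SE, adjusted p = 0.0266) and lost its call in 7 alternatives (up to 0.271). In purine and pyrimidine synthesis IMD3 (1.16 ± 0.25 (SE, adjusted p = 0.0156)) and URA10 (2.37 ± 0.50 (SE, adjusted p = 0.0127)) were the 2 of 25 genes that passed, both above 0 and a share of 8.0% near the 6.98% of all genes (6 above and 8 below with a term for each hybrid library), and each lost its call in at least 2 alternatives that left out a library (up to 0.192 and 0.0901). URA10's allelic log2 ratio (-2.08) passed in the main test and its parental one (0.3) did not.

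No member passed in either direction among 32 proteasome genes, 19 aminoacyl tRNA synthetases, 16 subunits of the vacuolar ATPase, 8 histone genes, 9 galactose and maltose genes and 31 meiotic genes. Over all genes 6.98% passed, so lists of this size can hold no call at that share. With a term for each hybrid library the proteasome and vacuolar ATPase genes still had none, against 1 synthetase, 2 histones, 1 galactose and maltose gene and 3 meiotic genes. Median trans differences were -0.04 for the proteasome, -0.04 for the synthetases and 0.12 for the vacuolar ATPase. They were 0.25 for the galactose and maltose genes and 0.15 for the meiotic genes. All 8 histone genes lay above 0, with a median of 0.49.

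In 34 genes the allelic ratio passed and the parental ratio did not. HMRA1, the silent copy of the mating-type gene that encodes a1 (YCR097W, chromosome III, 293835 to 294321, plus strand), had the largest difference in the comparison. HMRA1 had 21.1 and 16.1 CPM in the S. cerevisiae parent and 9.35 and 19.98 CPM in the S. paradoxus parent, against 33.7 and 33.1 CPM for the S. cerevisiae allele and 0.174 and 0.158 CPM for the S. paradoxus allele. The S. paradoxus allele held 1 count in each library, against 189 and 206 counts of the S. cerevisiae allele. The ratio was 198 with an exact 95% interval of 54.3 to 1640 that covers counting error only. A count of 1 was the lowest in any Ribo-seq column, and the interval does not cover a floor in the deposited counts. HMRA1's trans difference of -7.15 ± 0.80 (SE, adjusted p = 0.000183) is a fitted value that depends on those 2 counts. The gene shares its sequence with the active MATa copy, and reads of the 2 copies could not be told apart. QDR1, a multidrug transporter, was the next with 3.86 ± 0.49 (SE, adjusted p = 0.000498). QDR1 had 7.51 and 8.05 CPM in the S. cerevisiae parent and 4.19 and 5.36 CPM in the S. paradoxus parent, against 1.96 and 3.53 CPM for the S. cerevisiae allele and 26.7 and 22.7 CPM for the S. paradoxus allele. The parents lay close together, the S. cerevisiae allele was low and the S. paradoxus allele high. ASN1, an asparagine synthetase, had a trans difference of -1.62 ± 0.24 (SE, adjusted p = 0.00149). ASN1 had 1444 and 1456 CPM in the S. cerevisiae parent and 2005 and 1839 CPM in the S. paradoxus parent, against 2289.9 and 2348 CPM for the S. cerevisiae allele and 929 and 1077 CPM for the S. paradoxus allele. The alleles were outermost here, with the parents between them. YMR090W, of unknown function, had 2.83 ± 0.45 (SE, adjusted p = 0.00228). The parental ratio also passed, with a term for each hybrid library, for QDR1 (adjusted p = 0.0368), ASN1 (0.0226) and YMR090W (0.0067), in the direction opposite to the allelic one, whereas that of HMRA1 did not (0.335).

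Among haploid and mating genes 2 of 25 passed above 0 and 1 below (6 and 1 with a term for each hybrid library). Genes that a diploid represses are the check of the ploidy label. Of 14 such markers 11 were tested, with medians of 1.53 to 1.95 CPM in the 4 groups, and their summed occupancy was 46.1 to 47.6 CPM in the S. cerevisiae parent and 23.5 to 30.1 CPM in the S. paradoxus parent, against 20.4 to 20.7 CPM for the S. cerevisiae alleles and 37.1 to 41.0 CPM for the S. paradoxus alleles. STE4, a G protein subunit of the pheromone pathway, had 17.2 and 14.96 CPM in the S. cerevisiae parent and 0.977 and 1.48 CPM in the S. paradoxus parent, and RME1, a repressor of meiosis, had 10.1 and 13.04 CPM in the S. cerevisiae parent and 0.838 and 1.11 CPM in the S. paradoxus parent. They had the highest levels of the 11 in the S. cerevisiae parent. Their alleles held 0.789 to 6.96 CPM, and neither trans difference passed (adjusted p = 0.093 and 0.0657). STE2, the receptor for alpha factor, was among the 11. STE2 had 1.91 and 1.73 CPM in the S. cerevisiae parent and 2.93 and 2.77 CPM in the S. paradoxus parent, against 1.96 and 2.41 CPM for the S. cerevisiae allele and 14.1 and 15.6 CPM for the S. paradoxus allele. The S. paradoxus allele was high and the other groups lay below 3 CPM. STE2's trans difference was 2.11 ± 0.48 (SE, adjusted p = 0.017), and its call was lost without any 1 Ribo-seq library (adjusted p up to 0.114). PRM7, a pheromone-regulated gene whose orthologs have coding lengths of 2097 and 1596 bases, had -4.36 ± 1.02 (SE, adjusted p = 0.0204) and lost its call in 5 alternatives (up to 0.118). ASG7, an a-specific gene, passed at 3.06 ± 0.77 (SE, adjusted p = 0.0306) from 1 to 20 counts per library and lost its call in 12 alternatives (up to 0.304).

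In 14 genes (76 with a term for each hybrid library) both ratios passed in opposite directions. Besides YHB1 and ZRT1 these included SSE2, an Hsp110 chaperone (YBR169C, chromosome II, 573915 to 575996, minus strand). SSE2 had 102 and 91.3 CPM in the S. cerevisiae parent and 35.7 and 36.1 CPM in the S. paradoxus parent, against 11.96 and 12.05 CPM for the S. cerevisiae allele and 53.1 and 59.3 CPM for the S. paradoxus allele. Highest was the S. cerevisiae parent and lowest its own allele. SSE2's parental log2 ratio was 1.43, its allelic one -2.23 and its trans difference 3.65 ± 0.29 (SE, adjusted p = 1.01e-05). SCM4, a protein of the mitochondrial outer membrane (YGR049W, chromosome VII, 591314 to 591877, plus strand), had ratios of -1.86 and 0.84 and a trans difference of -2.71 ± 0.21 (SE, adjusted p = 8.96e-06). SCM4 had 47.5 and 49.9 CPM in the S. cerevisiae parent and 165 and 189.6 CPM in the S. paradoxus parent, against 158 and 157 CPM for the S. cerevisiae allele and 84.4 and 91.2 CPM for the S. paradoxus allele. The S. cerevisiae allele stood just below the S. paradoxus parent and the S. cerevisiae parent was the lowest group. SSE2 kept both ratios in all 27 alternatives. The allelic ratio was lost without either hybrid Ribo-seq library for YHB1 (adjusted p up to 0.313) and SCM4 (up to 0.145), and the parental ratio of ZRT1 without either S. cerevisiae Ribo-seq library or S. paradoxus replicate 2 (up to 0.127). TIR3, a cell wall mannoprotein made mainly when oxygen is lacking (YIL011W, chromosome IX, 333727 to 334536, plus strand), passed in both ratios with the same sign and the larger one between the alleles, 2.70 and 5.74. TIR3 had 49.5 and 71.1 CPM in the S. cerevisiae parent and 8.94 and 9.62 CPM in the S. paradoxus parent, against 352 and 368 CPM for the S. cerevisiae allele and 8.33 and 5.21 CPM for the S. paradoxus allele. The S. cerevisiae allele exceeded the other groups, and the trans difference was -3.04 ± 0.39 (SE, adjusted p = 0.000498).

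The trans difference equals the parent minus allele difference of the S. cerevisiae copy minus that of the S. paradoxus copy. The S. cerevisiae parent differed from its allele in 288 genes (5.58%), 171 (3.32%) higher and 117 (2.27%) lower, and the S. paradoxus parent from its allele in 124 genes (2.40%), 53 (1.03%) higher and 71 (1.38%) lower. In the Ribo-seq columns alone the counts were 1066 (485 higher and 581 lower) and 551 (255 higher and 296 lower). For S. cerevisiae 73 and 86 genes passed without hybrid Ribo-seq replicate 1 and 2, 102 and 128 without its own Ribo-seq replicate 1 and 2, and 940 and 885 without hybrid RNA-seq replicate 1 and 2. For S. paradoxus 43 and 32 passed without hybrid Ribo-seq replicate 1 and 2, 44 and 45 without its own, and 489 and 480 without those of hybrid RNA-seq. Of the 237 genes with a positive trans difference the change was larger on the S. cerevisiae side in 137 and on the S. paradoxus side in 100, and of the 123 negative ones in 80 and 43. Both allele means lay between the parents in 159 of the 237 and in 90 of the 123. The same share was not taken over all tested genes. Most called genes have a wide gap between the parents, which leaves room for the alleles, so these counts are descriptions only. The parent minus allele comparisons share their libraries with the trans difference, and their calls are not independent of it.

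For the 273 genes in which the parental ratio alone passed, the mean log2 level of both alleles was placed on a scale where 0 is the S. paradoxus parent and 1 the S. cerevisiae parent. A gene needed a called difference between the parents to enter, which leaves room between them, so these positions are descriptions only. They were not taken over all tested genes. The median position was 0.44 with quartiles of 0.24 and 0.60. Of these genes 72 lay below 0.25, 175 from 0.25 to 0.75 and 26 above 0.75. The 8 oxidative phosphorylation genes had a median of 0.15 and the 7 ergosterol genes 0.33, nearer to the S. paradoxus parent. The 9 phosphate and zinc genes had a median of 0.58 and the 5 ribosome biogenesis genes 0.48. SPL2 and CHA1 both stood at 0.90 and PHO84 at 0.77, near the S. cerevisiae parent.

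**Figure D4:**
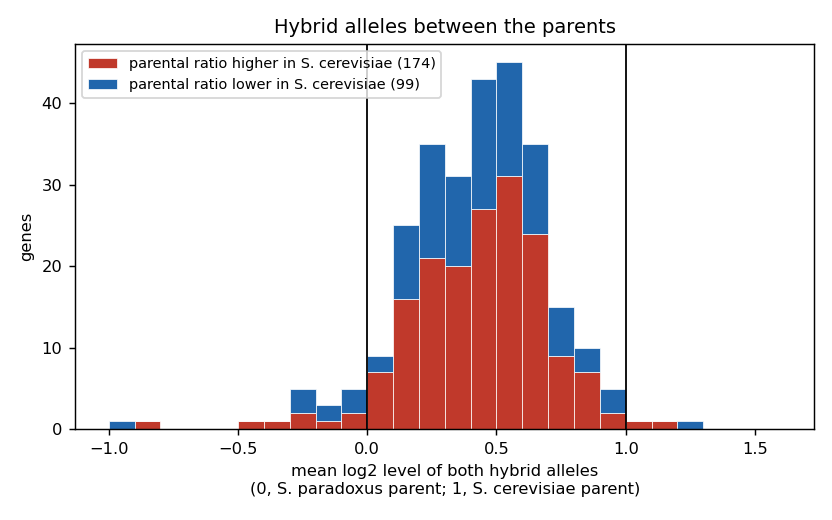
Number of genes (vertical axis) by the mean log2 level of both hybrid alleles relative to the parents (horizontal axis, 0 the S. paradoxus and 1 the S. cerevisiae parent, from CPM plus 1) for the 273 genes in which the parental ratio alone passed, in red for 174 with a higher and blue for 99 with a lower parental ratio. Most genes lie between the parents, with the median at 0.44. The choice of genes with a called parental ratio leaves room there.

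Across genes, trans differences in occupancy went with trans differences in mRNA, though not in every list. The same contrast in the RNA-seq columns passed in 640 genes (12.4%), 356 (6.9%) above 0 and 284 (5.51%) below, and across genes the 2 contrasts correlated by 0.748 (Pearson) and 0.681 (Spearman). Of the 237 genes above 0 in occupancy 235 had the same sign in mRNA and 151 passed, with medians of 1.78 in occupancy and 1.40 in mRNA. Of the 123 below 0, 118 had the same sign and 83 passed, with medians of -1.45 and -1.33. The 234 genes that passed in both in the same direction were 65.0% of the occupancy calls and 36.6% of the mRNA calls. These counts and shares differed between fits. The hybrid library term gave 1821 genes in mRNA, and the 845 shared calls were 72.2% of 1170 occupancy calls and 46.4% of the mRNA calls. In fits of each assay alone 105 genes passed in mRNA, and the 94 shared calls were 7.63% of 1232 occupancy calls and 89.5% of the mRNA calls. Among RNA-seq libraries, leaving out replicate 1 or 2 of S. cerevisiae gave 308 or 198 genes and replicate 1 of S. paradoxus 354. The mRNA count was 419 and 415 without hybrid Ribo-seq replicate 1 and 2, and 1210 and 1049 without hybrid RNA-seq replicate 1 and 2. In mRNA, SPL2 differed by 5.31, YHB1 by 5.29, CYC1 by -2.92 and FRE4 by -4.51. Some lists parted ways. Medians in occupancy and mRNA were 0.34 and -0.15 for glycolysis and fermentation, and -0.04 and -0.62 for the aminoacyl tRNA synthetases.

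**Figure D5:**
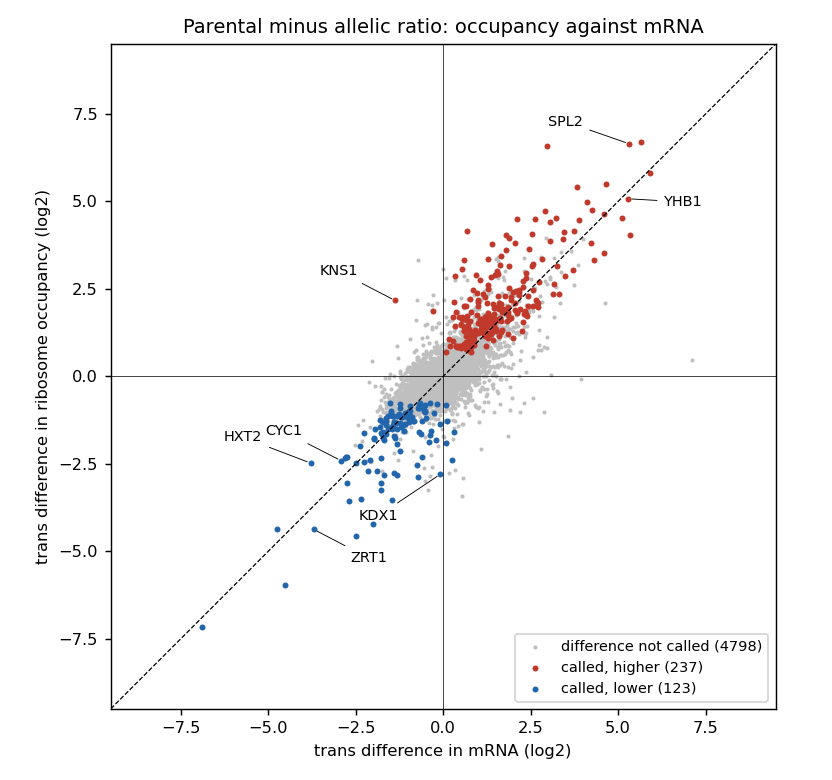
Trans difference in ribosome occupancy (vertical axis, log2) against the trans difference in mRNA (horizontal axis, log2) for 5158 genes, coloured by the call in occupancy as red above 0 and blue below 0, with equality as the dashed line. Points follow the line, and KNS1, at 2.17 in occupancy and -1.37 in mRNA, is the gene that passed in both with opposite signs.

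The difference between these contrasts is the trans difference in translation efficiency, the occupancy per mRNA. It passed in 0 of 5158 genes (0.0%) in the edgeR test, where 241 genes had an unadjusted p under 0.05 and the smallest adjusted p was 0.0976, against 10 genes by DESeq2 and 9 with a term for each hybrid library. KNS1 encodes a LAMMER kinase of nutrient signalling (YLL019C, chromosome XII, 105686 to 107899, minus strand). KNS1 had 40.1 and 41.03 CPM in the S. cerevisiae parent and 8.80 and 14.2 CPM in the S. paradoxus parent, against 19.1 and 21.7 CPM for the S. cerevisiae allele and 20.5 and 31.1 CPM for the S. paradoxus allele. Occupancy was higher in the S. cerevisiae parent than in the S. paradoxus parent, with the alleles between them. In mRNA it had 18.99 and 20.3 CPM in the S. cerevisiae parent and 87.7 and 59.99 CPM in the S. paradoxus parent, against 32.4 and 43.5 CPM for the S. cerevisiae allele and 49.3 and 60.7 CPM for the S. paradoxus allele. In mRNA the S. cerevisiae parent was the lowest group. KNS1's trans difference was 2.17 ± 0.40 (SE, adjusted p = 0.00585) in occupancy, -1.37 (adjusted p = 0.031) in mRNA and 3.54 (adjusted p = 0.0976) in translation efficiency, the last from 0.00231 to 0.547 over the alternatives. Its occupancy call was lost without hybrid Ribo-seq replicate 2 (from 2.72e-05 to 0.0855).

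The next genes in translation efficiency were the hexokinase HXK2 (1.81), the Hsp70 chaperone SSA2 (1.51) and the phosphofructokinase subunit PFK1 (1.20) on the positive side. In these 3 genes the occupancy difference was small, at 0.52, -0.04 and 0.26, and did not pass, while the mRNA difference was -1.29, -1.55 and -0.94 and passed. HXK2's occupancy difference passed narrowly with a term for each hybrid library (adjusted p = 0.0489) and in the Ribo-seq columns alone (0.0456). In translation efficiency the adjusted p by edgeR was 0.333 for HXK2 and 0.897 for SSA2 and PFK1, against 0.00037, 0.0188 and 0.0188 by DESeq2. HXK2 also passed with a term for each hybrid library (0.00465), and SSA2 (0.0578) and PFK1 (0.119) did not. SSA2 is nearly identical to SSA1. On the negative side stood the kinase KDX1 (-2.71), a paralog of the cell wall kinase SLT2, the mitochondrial oxaloacetate carrier OAC1 (-1.68), the zinc gene ZPS1 (-2.65) and GCN4 (-1.47), the activator of amino acid synthesis whose translation is set by upstream reading frames. Their adjusted p in translation efficiency was 0.255 for KDX1, 0.671 for OAC1 and 0.897 for ZPS1 and GCN4. KDX1 (0.00737) and OAC1 (0.0222) passed with a term for each hybrid library and GCN4 by DESeq2 (0.0192), while ZPS1 passed in no alternative. KDX1 had 15.2 and 10.7 CPM in the S. cerevisiae parent and 40.9 and 44.9 CPM in the S. paradoxus parent, against 11.6 and 12.8 CPM for the S. cerevisiae allele and 3.82 and 7.58 CPM for the S. paradoxus allele. The S. paradoxus parent was high, and KDX1's trans difference in occupancy was -2.80 ± 0.38 (SE, adjusted p = 0.000819) with -0.09 in mRNA. OAC1 had 41.01 and 37.4 CPM in the S. cerevisiae parent and 126 and 135 CPM in the S. paradoxus parent, against 87.1 and 93.6 CPM for the S. cerevisiae allele and 66.7 and 55.4 CPM for the S. paradoxus allele. OAC1 was likewise highest in the S. paradoxus parent, with -2.30 ± 0.27 (SE, adjusted p = 0.000216) in occupancy. GCN4 had 31.97 and 41.4 CPM in the S. cerevisiae parent and 104 and 111 CPM in the S. paradoxus parent, against 57.5 and 51.1 CPM for the S. cerevisiae allele and 39.8 and 46.7 CPM for the S. paradoxus allele. GCN4's occupancy was highest in the S. paradoxus parent, with -1.88 ± 0.27 (SE, adjusted p = 0.00106) against -0.41 in mRNA. The orthologs of KDX1 have coding lengths of 1302 and 1527 bases.

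The calls were spread over levels and chromosomes, but their direction was uneven over levels. In the lowest quartile of mean occupancy 96 genes passed above 0 and 16 below. In the higher quartiles, in rising order, the counts were 43 and 23, 35 and 38, and 63 and 46. By quartile of mean occupancy, 8.68%, 5.12%, 5.66% and 8.45% of genes passed, from the lowest to the highest quartile, while the median standard error ran from 0.48 to 0.28. Median trans differences by chromosome lay between -0.03 and 0.10 except on chromosome VI, where the 105 tested genes had a median of 0.23. There the S. cerevisiae parent minus its allele had a median of 0.14 and the S. paradoxus parent minus its allele -0.11, and 5 genes passed above 0 and none below (4.76%). The cause was not tested. Of the 360 called genes 14 had orthologs whose coding lengths differ by over 10%.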

How the data were processed

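Ribo-seq and RNA-seq counts of 2 diploid yeast species and their F1 hybrid were used, 12 libraries in 16 columns. The authors deposited whole-number counts of reads per gene, with a column per allele for hybrid libraries, per the file headers. The submitters' processing notes list bedtools 2.17.0, Bowtie 0.12.8, CASAVA 1.8, cutadapt 1.2.1 and the build sacCer3. The role of each tool, the S. paradoxus assembly and the use of strand in counting are not given in the sources used. How the authors counted reads common to both alleles or to near-identical or overlapping genes is not given either. Gene positions are 1-based sacCer3 coordinates from the deposited coordinate tables, and 5179 of 5226 genes lay at their R64 position in the RefSeq gene table. All named genes are given over the span of their S. cerevisiae coding sequence. No sequence of either species was used here.

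Counts were fitted with edgeR 4.0.16 in R 4.3.3 (scaled by TMM, genes kept by filterByExpr with minimum count 10, group means over all 16 columns, quasi-likelihood test, two-sided, Benjamini-Hochberg adjustment at 0.05 over 5158 genes). Residual degrees of freedom were 8 and prior ones 5.26, with a biological coefficient of variation of 0.179 in common. Both alleles are counted from the same hybrid library and so are paired, and their replicate deviations correlated by 0.302 in Ribo-seq, against 0.0473 to 0.0989 between other Ribo-seq groups. The calculation was tested on simulated counts drawn independently for each column. That test therefore did not cover the pairing of the alleles within a hybrid library. DESeq2 1.42.0 and limma 3.58.1 (voom with a random library effect, within-library correlation 0.733) were alternatives, as were library terms, Ribo-seq columns alone, no filter and leaving out each library. CPM values are counts scaled by edgeR.

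Named genes were the 12 largest calls per direction with a mean of at least 10 CPM and replicate ratios apart, up to 3 best calls per list, the 4 best per direction in translation efficiency and the 4 best among allelic-only and opposite-sign calls. The genes, lists and alternatives were chosen with earlier results of these data known, and other genes named in the text are called members of the lists. Counts and medians of lists are descriptions, with no test. Each count of calls in a list by the main test stands against the 6.98% of all tested genes that passed. Each list count with a term for each hybrid library stands against the larger share of that fit, 1170 of 5158 genes.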

Additional observations from a re-analysis of the deposited data

Results flagged for a closer look

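In 14 genes the parental and the allelic occupancy ratio both passed with opposite signs, so that the parental minus allelic difference passed and the direction of the species difference turned round in the hybrid. By edgeR the 4 with the smallest adjusted p were YHB1, SCM4, SSE2 and ZRT1, with differences of 5.08, -2.71, 3.65 and -4.38 on the log2 scale. The other 10 genes were FMP45 (6.60), ADR1 (3.35), GPX1 (3.81), BNA5 (2.82), GPM2 (2.65), GPP2 (2.09), ECM4 (2.01), LSC2 (1.32), KDX1 (-2.80) and CTP1 (-1.66), named after their values were seen. The parental minus allelic difference of these 4 genes kept its call in all 27 alternatives. Both ratios kept theirs, with opposite signs, in 27 alternatives for SSE2, 25 for SCM4 and 24 each for YHB1 and ZRT1, and the others each left out 1 Ribo-seq library.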

How the results depend on the processing

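The main count of 360 genes was 365 with DESeq2's size factors, 356 without the filter on low counts and 345 among genes whose ortholog coding lengths agree within 10%. It was 613 by DESeq2's Wald test, 1232 in the columns of 1 assay alone, 1170 with the replicate block of hybrid library terms, 780 with the replicate number as a block and 800 with limma voom, and 89 to 1069 with 1 library left out. Added after the data were seen, the Ribo-seq columns alone gave 1487 with hybrid library terms as the replicate block and, without 1 Ribo-seq library, 989 and 893 (S. cerevisiae replicates 1 and 2), 934 and 993 (S. paradoxus) and 886 and 799 (hybrid). In the same order of 1 assay alone, hybrid library block, replicate number block and voom, and then with 1 library left out, the other counts that moved by over 1.5 times were as follows. The parental ratio passed in 2654 and 2565 genes (1 assay and hybrid library block) and in 1027 to 2491 with 1 library left out, against 1702. The allelic ratio passed in 1076, 1056, 703 and 1814 genes and in 110 to 984, against 451. The mRNA trans difference passed in 105, 1821, 1246 and 1483 genes and in 198 to 1210, against 640. Translation efficiency passed in 9, 1 and 2 genes (both replicate blocks and voom), in 10 by DESeq2 and in 0 to 3, against 0. The S. cerevisiae parent minus its allele passed in 502 genes by DESeq2, 1066 in 1 assay, 610 with the replicate number block and 73 to 940, against 288, and the S. paradoxus parent minus its allele in 231, 551, 264 and 32 to 489, against 124. A hybrid library term leaves these last 2 comparisons resting on hybrid replicate 1 alone, and no value is given for it.

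Of the 87 named genes whose call passed, 87 kept it with the hybrid library block and 87 in the Ribo-seq columns alone. Those fits call more genes and kept 360 and 357 of all 360 calls, so this says little about the named genes. Of the 87, 40 kept their call in every alternative and 47 lost it in at least 1, in 46 cases only where 1 library was left out. No named gene reversed. The median trans difference kept its sign in every alternative in 23 of 31 lists. The labels do not say whether same-numbered samples of different strains share anything beyond the number. Totals of same-numbered parental Ribo-seq columns differed by 0.067% and 0.18%, against 0.117% and 0.119% for the 2 alleles of a hybrid library. The cause of the higher counts without the hybrid RNA-seq libraries was not tested.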
